A study of Mus musculus with 10 samples.

Results

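The genes described here were the transcription factors that drive epithelial-mesenchymal transition (EMT), namely Snai1, Snai2, Snai3, Twist1, Twist2, Zeb1 and Zeb2, together with Vim, which encodes the intermediate filament protein vimentin. They were found by matching the Ensembl identifiers of a table of raw counts to gene symbols, which gave 8 of 52636 rows. Of these, 7 were among the 17286 genes with enough counts for a test, and Snai3 was not. Counts came from polyadenylated RNA of 10 mouse tumours labelled as melanoma. In 6 tumours the genotype was BrafCA;Cdkn2af/f; Arf6Q67L, and in 4 control tumours it was BrafCA;Cdkn2af/f. All 10 thus carried BrafCA, an oncogenic Braf allele switched on by Cre, and floxed alleles of the tumour suppressor locus Cdkn2a. Arf6Q67L encodes a mutant of ARF6, a small GTPase of membrane traffic, that stays bound to GTP and hence active. The sources used here do not give the Cre driver, the age or sex of the mice, or whether each tumour came from its own mouse, so p-values measure the spread between these tumours.

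EMT is the switch by which cells bound in sheets loosen their contacts and gain motility. SNAI and ZEB proteins are zinc-finger factors that bind E-boxes and repress epithelial genes such as Cdh1, the gene of E-cadherin, while TWIST proteins are basic helix-loop-helix (bHLH) factors that bind E-boxes as dimers. In cells of the melanocyte lineage these factors do not all act in 1 direction: SNAI2 and ZEB2 are known from normal melanocytes, whereas ZEB1 and TWIST1 are associated with dedifferentiated, invasive melanoma. Vimentin forms the main intermediate filament of mesenchymal cells and is a common readout of the mesenchymal state.

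Library totals lay between 31372896 and 37918116 counts in Arf6Q67L tumours and between 28635414 and 40869091 in controls. Levels are given as CPM, counts over each library's TMM-scaled total. A count of 0 allows up to 3 counts, from 0.0761 to 0.106 CPM by library, for counting error only. Arf6 itself averaged 104 ± 21.3 CPM in Arf6Q67L tumours (SD, n = 6) and 93.0 ± 17.4 CPM in controls (SD, n = 4; edgeR adjusted p 0.758); gene counts do not tell the Q67L transcript from the normal one. Although the tissue is labelled melanoma, the defining markers of melanocytes were nearly absent. Of 10 melanocyte genes, 8 were under 1 CPM in every tumour (Tyr, Tyrp1, Dct, Pmel, Mlana, Slc45a2, Oca2 and Mc1r), and Tyr, Dct and Oca2 were at 0 counts in all of them. Mitf, the master regulator of the lineage, averaged 17.0 ± 5.57 CPM in Arf6Q67L tumours and 16.6 ± 4.18 CPM in controls. From Xist and Y-linked genes, Arf6Q67L tumours 1, 3 and 4 and control 1 were from females, and the other 6 tumours were from males.

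Promoter sequences, the 250 bases before an annotated start in the RefSeq table for GRCm38.p6, were found for 5 of the 8 genes (Snai1, Twist1, Twist2, Zeb2 and Vim; Zeb2 has 4 windows). The promoters of Snai1, Twist1 and Vim, 1 gene each of the SNAI and TWIST families and vimentin, are printed on the plus strand. The Vim window lies inside the annotated Vim gene (13573927 to 13582826). Zeb2 windows at 45110278 to 45110527, 45113254 to 45113503 and 45113280 to 45113529 lie inside the annotated Zeb2 gene (44983632 to 45117395). The last of these overlaps the one before it. Capitals mark a match, on either strand, to the E-box CACCTG, to the TATA motif TATAAA or to the CCAAT motif, which reads ATTGG where it lies on the minus strand.
Snai1, chr2:167537945-167538194: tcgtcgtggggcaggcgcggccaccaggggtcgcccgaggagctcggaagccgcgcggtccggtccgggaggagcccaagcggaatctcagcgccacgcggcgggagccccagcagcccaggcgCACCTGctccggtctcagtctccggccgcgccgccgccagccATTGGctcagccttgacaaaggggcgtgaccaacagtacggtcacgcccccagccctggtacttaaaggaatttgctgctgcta
Twist1, chr12:33957421-33957670: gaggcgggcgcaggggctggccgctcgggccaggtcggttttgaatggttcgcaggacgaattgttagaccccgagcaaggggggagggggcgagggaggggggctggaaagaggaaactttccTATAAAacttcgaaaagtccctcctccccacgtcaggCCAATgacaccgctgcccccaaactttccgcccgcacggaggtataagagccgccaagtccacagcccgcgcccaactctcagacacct
Vim, chr2:13574061-13574310: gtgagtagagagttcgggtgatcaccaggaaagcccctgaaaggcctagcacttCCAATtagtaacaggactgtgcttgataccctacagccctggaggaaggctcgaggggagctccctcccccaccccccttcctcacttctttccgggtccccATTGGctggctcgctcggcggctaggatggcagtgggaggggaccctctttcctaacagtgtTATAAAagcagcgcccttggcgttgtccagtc

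The Snai1 window held 1 CACCTG, the E-box form that SNAI and ZEB fingers bind, which began 126 bases before the RefSeq start. Of the 8 windows of these genes it alone held this form. The general E-box, CANNTG, of which the first is a special case, was found in no other of the 8 windows either. Among 32851 RefSeq windows of the same length, 17.2% held the SNAI and ZEB form and 66.2% held the general E-box. TATAAA was found in the Twist1 window 126 bases before the start and in the Vim window 32 bases before it, against 12.4% of all windows. The CCAAT motif was present in the Snai1, Twist1, Twist2 and Vim windows and in 1 of the Zeb2 windows, against 33.8% of all windows. These are matches of letters, and no binding was measured.

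Levels can be set against each other between genes only per length, so counts were also expressed as RPKM (CPM per kilobase of summed exons). Vim stood far above every factor, at 998 ± 162 RPKM in Arf6Q67L tumours and 727 ± 117 RPKM in controls (SD, n = 6 and 4), and ranked 50 of 17286 genes by mean RPKM. Among the factors, Twist1 came first with 36.8 ± 20.9 RPKM in Arf6Q67L tumours and 62.6 ± 9.07 RPKM in controls. Snai1, at 17.2 ± 2.30 RPKM in Arf6Q67L tumours and 21.4 ± 3.73 RPKM in controls, and Zeb1, at 15.2 ± 2.75 and 13.2 ± 2.80 RPKM in the same groups, followed. Twist2, Snai2 and Zeb2 were lower still, with means over all 10 tumours of 11.3 ± 4.11, 9.87 ± 2.91 and 6.59 ± 0.962 RPKM. Snai3 was near the limit of detection, at 0.142 ± 0.167 RPKM in Arf6Q67L tumours and 0.279 ± 0.264 RPKM in controls.

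Within tumours, Twist1 was above Snai1 in 9 of 10, Snai1 above Zeb1 in 8, Zeb1 above Twist2 in 9, Twist2 above Snai2 in 6, and Snai2 above Zeb2 in 8. Twist2 and Snai2 are therefore neighbours whose order was not stable between tumours. The order also rests on the length used. With the longest coding transcript in place of the summed exons, the mean RPKM of Zeb1 over all tumours was 25.6 ± 4.97 and that of Zeb2 was 14.4 ± 2.10, which placed Zeb1 above Snai1 and Zeb2 beside Twist2 (14.2 ± 5.16). Within each family 1 paralogue led on either length: Snai1 was above Snai2 and Zeb1 above Zeb2 in 10 of 10 tumours, and Twist1 above Twist2 in 9 of 10, with Arf6Q67L tumour 1 as the exception.

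**Figure D1:**
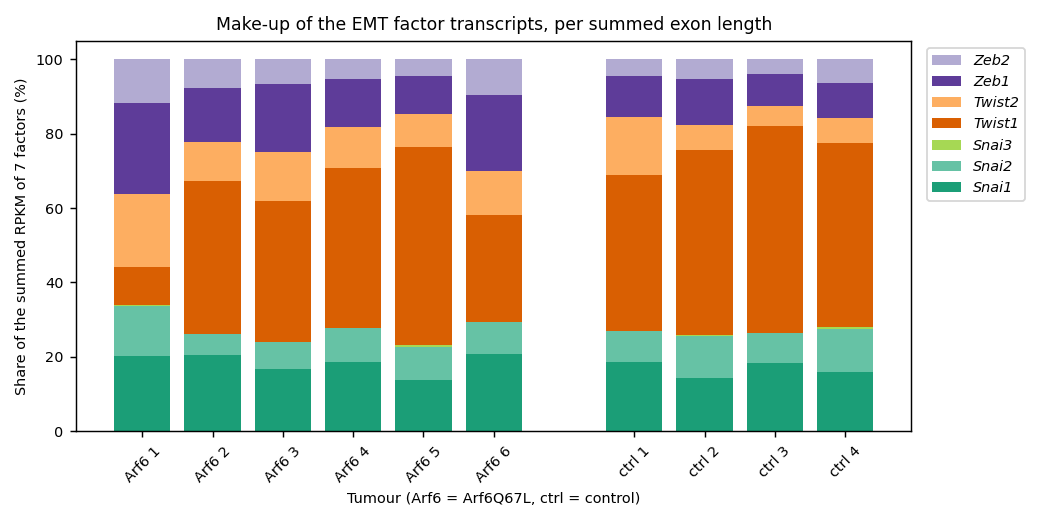
Share of each of the 7 EMT factors in their summed RPKM (percent, y axis) in each tumour, Arf6Q67L tumours on the left and controls on the right. Twist1 held 10.4 to 53.4% of the sum in Arf6Q67L tumours and 42.0 to 55.6% in controls.

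The make-up of the factor pool differed most between tumours in Twist1, as the plot of shares shows. Twist1 made up 35.8% ± 14.8 of the summed factor RPKM in Arf6Q67L tumours (SD, n = 6) and 49.2% ± 5.59 in controls (SD, n = 4). Twist1 was the leading factor in 9 of 10 tumours, and in Arf6Q67L tumour 1, with a Twist1 share of 10.4%, Zeb1 led. By coding transcript length Twist1 led in 8 of 10, and Zeb1 led in Arf6Q67L tumours 1 and 6. The share of Zeb1 was 16.8% ± 5.21 in Arf6Q67L tumours and 10.4% ± 1.56 in controls. By coding transcript length the Twist1 share was 29.3% ± 13.3 in Arf6Q67L tumours and 42.5% ± 5.60 in controls, and that of Zeb1 was 23.4% ± 5.84 in Arf6Q67L tumours and 15.8% ± 2.14 in controls. Shares sum to 100%, so a low share of 1 factor raises those of the others.

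No gene of the 17286 passed the edgeR quasi-likelihood test at an adjusted p under 0.05, in either direction (background 0%), so none of the 7 tested EMT genes did. At an unadjusted p under 0.05 edgeR listed 2023 genes (11.7%), with 804 higher (4.65%) and 1219 lower (7.05%) in Arf6Q67L tumours. Among the EMT genes 3 of 7 were on that list: Vim with a positive log2 fold change, Snai1 and Snai2 with negative ones. DESeq2, an alternative test, called 401 genes (2.33%), 161 higher (0.935%) and 240 lower (1.39%) in Arf6Q67L tumours, and none of the EMT genes was among them. The groups did not overlap in CPM for 421 genes (2.44%), with Arf6Q67L above in 199 (1.15%) and below in 222 (1.28%), and for 0 of the 7 EMT genes. A two-sided exact permutation test over the 210 splits of the tumours gave an unadjusted p under 0.05 for 1674 genes (9.68%), Snai2 and Vim included, and for none after adjustment over all genes (0%). The log2 fold change was positive for 4 of the 7 EMT genes and for 49.7% of all genes, with medians of 0.06 and -0.0018.

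Vim (chromosome 2, 13573927 to 13582826, plus strand, GRCm38) had 4652, 5548, 4121, 3572, 5219 and 5303 CPM in Arf6Q67L tumours 1 to 6, and 3098, 2854, 3954 and 3880 CPM in controls 1 to 4. All Arf6Q67L tumours but tumour 4 lay above every control. The means were 4736 ± 769 CPM in Arf6Q67L tumours (SD, n = 6) and 3447 ± 553 CPM in controls (SD, n = 4). The log2 fold change was 0.46 (SE 0.16, 95% interval 0.11 to 0.81). The edgeR adjusted p was 0.345 and the DESeq2 adjusted p was 0.115. The exact permutation p was 0.0286 before adjustment and 0.452 after it, and the unadjusted p was 0.0556 to 0.0833 without Arf6Q67L tumour 1, 2, 5 or 6 or control 1 or 2. Vim took 0.481% ± 0.0901 of all counts in Arf6Q67L tumours and 0.338% ± 0.0598 in controls, and stood at rank 4 to 8 among genes by count in Arf6Q67L tumours and at rank 7 to 14 in controls. In bulk tumours a different number of vimentin-bearing cells and a different amount of Vim RNA per cell cannot be told apart.

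**Figure D2:**
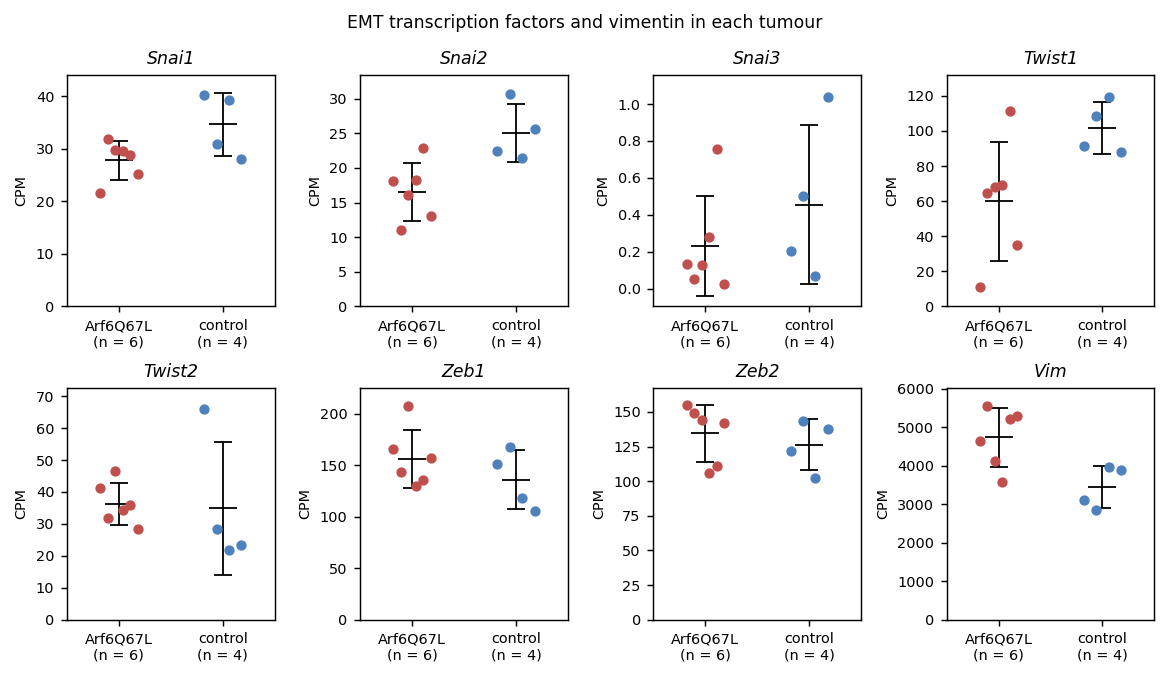
Level of each of the 8 genes in CPM (linear y axis, scaled per panel) in each tumour, with a point per tumour and lines at the group mean and 1 SD either side, Arf6Q67L on the left and control on the right of each panel. Vim lay between 3572 and 5548 CPM in Arf6Q67L tumours and between 2854 and 3954 CPM in controls.

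Snai2, which encodes SLUG, (chromosome 16, 14705852 to 14709385, plus strand) had 18.1, 11, 16.1, 18.3, 22.8 and 13.0 CPM in Arf6Q67L tumours 1 to 6 and 22.5, 30.6, 21.4 and 25.7 CPM in controls 1 to 4. Arf6Q67L tumour 5 lay within the range of the controls, and the other 5 of its group lay below it. The means were 16.6 ± 4.20 CPM in Arf6Q67L tumours and 25 ± 4.14 CPM in controls, and the log2 fold change was -0.60 (SE 0.20, 95% interval -1.04 to -0.15). The edgeR adjusted p was 0.334, the DESeq2 adjusted p 0.131, and the exact permutation p 0.0286 before and 0.452 after adjustment. Without control 1, 2 or 4 the unadjusted permutation p was 0.0595 to 0.0714.

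Snai1, which encodes SNAIL, (chromosome 2, 167538195 to 167542814, plus strand) had 21.7, 31.9, 29.8, 29.6, 28.8 and 25.2 CPM in Arf6Q67L tumours and 40.2, 30.9, 39.4 and 28.1 CPM in controls. The groups overlapped, with 2 of 6 Arf6Q67L tumours below every control. The means were 27.8 ± 3.73 CPM in Arf6Q67L tumours and 34.6 ± 6.04 CPM in controls, with a log2 fold change of -0.32 (SE 0.14, 95% interval -0.63 to -0.0021). The edgeR p was 0.0487 before adjustment and 0.425 after it, the DESeq2 adjusted p was 0.360, and the exact permutation p was 0.0857. With 1 tumour left out, the permutation p lay between 0.0357, without control 4, and 0.202, without control 1 or 3.

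Snai3, a further SNAIL family gene, (chromosome 8, 122454208 to 122460733, minus strand) had only 5, 2, 4, 9, 29 and 1 counts in Arf6Q67L tumours 1 to 6 and 8, 16, 2 and 31 counts in controls 1 to 4. Its means were 0.231 ± 0.272 CPM in Arf6Q67L tumours and 0.454 ± 0.430 CPM in controls, with overlapping groups and an exact permutation p of 0.314. No difference was detected at these low counts, which also ran from 1 to 29 within the Arf6Q67L tumours and from 2 to 31 within the controls.

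Twist1 (chromosome 12, 33957671 to 33959829, plus strand) varied most among the tested factors. It had 11.2, 64.6, 68.2, 69.3, 111 and 34.9 CPM in Arf6Q67L tumours 1 to 6 and 91.5, 109, 119 and 87.9 CPM in controls 1 to 4. Arf6Q67L tumour 5 lay within the range of the controls and the other 5 lay below it. The 4 controls were close together, and the spread came from the Arf6Q67L tumours, with a 10.7-fold range over all 10 tumours. Its low end was Arf6Q67L tumour 1 alone, at 11.2 CPM, and the next lowest tumour was at 34.9 CPM. The means were 59.9 ± 34.1 CPM in Arf6Q67L tumours and 102 ± 14.8 CPM in controls, and the log2 fold change was -0.77 (SE 0.47, 95% interval -1.80 to 0.27). The difference was not called, at an edgeR adjusted p of 0.561 and a DESeq2 adjusted p of 0.494. Its unadjusted exact permutation p was 0.0952, or 0.0317 without Arf6Q67L tumour 5 and 0.0794 without Arf6Q67L tumour 1. Without Arf6Q67L tumour 1 the edgeR log2 fold change was -0.55 (SE 0.28).

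Twist2, also known as Dermo1, (chromosome 1, 91801461 to 91848028, plus strand) had 41.2, 31.9, 46.5, 34.5, 35.8 and 28.3 CPM in Arf6Q67L tumours and 65.9, 28.3, 21.8 and 23.4 CPM in controls. Control 1 was above every other tumour, and the other 3 controls were at or below the lowest Arf6Q67L tumour. The means were 36.4 ± 6.56 CPM in Arf6Q67L tumours and 34.9 ± 20.9 CPM in controls, giving a log2 fold change of 0.06 (SE 0.30, 95% interval -0.62 to 0.74) and an edgeR adjusted p of 0.959. Without control 1 the log2 fold change was 0.57 (SE 0.17) at an edgeR adjusted p of 0.242 and an unadjusted exact permutation p of 0.0238. The sign was not stable: without control 2, 3 or 4 the log2 fold change was -0.023, -0.11 and -0.080, and with the T cell score as a term it was -0.17. An antisense gene, Gm29100, overlaps Twist2 and had counts equal to 8.42% of those of Twist2. The kit marks strand, but the setting of the counting is not given, so reads of this pair cannot be told apart.

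Zeb1 (chromosome 18, 5591860 to 5775467, plus strand) had 165, 144, 207, 129, 136 and 157 CPM in Arf6Q67L tumours and 151, 168, 119 and 106 CPM in controls. The highest value was in Arf6Q67L tumour 3, and the groups overlapped over most of their ranges. The means were 156 ± 28.2 CPM in Arf6Q67L tumours and 136 ± 28.7 CPM in controls, and the log2 fold change was 0.20 (SE 0.17, 95% interval -0.17 to 0.57) at an edgeR adjusted p of 0.685. Single tumours moved it: it was 0.12 without Arf6Q67L tumour 3, 0.11 without control 4 and 0.32 without control 2. Zeb2 (chromosome 2, 44983632 to 45117395, minus strand) had 155, 149, 144, 106, 111 and 142 CPM in Arf6Q67L tumours and 122, 143, 102 and 138 CPM in controls. It was the most even of the factors, with means of 135 ± 20.7 CPM in Arf6Q67L tumours and 126 ± 18.4 CPM in controls, and a log2 fold change of 0.09 (SE 0.14, 95% interval -0.22 to 0.40) at an edgeR adjusted p of 0.840. With the endothelial or mast cell score as a term the sign turned, to -0.12 and -0.083. Without 1 tumour the value lay between 0.0033, without control 3, and 0.16, without control 2. The antisense gene Zeb2os, with counts equal to 1.49% of those of Zeb2, differed by -0.71 on the log2 scale (SE 0.37, edgeR adjusted p 0.492). Gm10125, on the opposite strand, overlaps Zeb1 and had counts equal to 2.145% of those of Zeb1. It differed by 0.025 (SE 0.25, edgeR adjusted p 0.983).

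**Figure D3:**
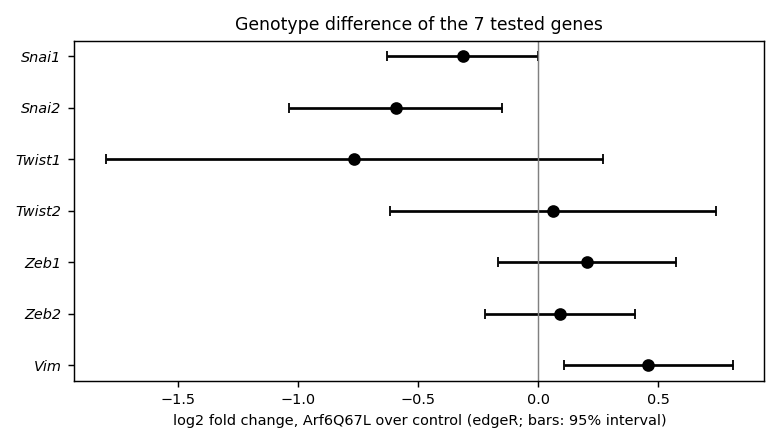
The log2 fold change (Arf6Q67L over control, x axis) of the 7 tested genes from edgeR, with 95% intervals. The intervals of Vim (0.11 to 0.81), Snai2 (-1.04 to -0.15) and Snai1 (-0.63 to -0.0021) leave out 0 before adjustment over all genes, and that of Twist1 is the widest.

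The tumours' sex, read from the counts, was uneven between the groups, with 3 females among the 6 Arf6Q67L tumours and 1 among the 4 controls. Vim lay higher with Arf6Q67L in both sexes: 3572 to 4652 CPM in Arf6Q67L females against 3098 CPM in the control female, and 5219 to 5548 CPM in Arf6Q67L males against 2854 to 3954 CPM in control males. With sex as a term the log2 fold change of Vim for genotype was 0.53 (SE 0.13, edgeR adjusted p 0.290). Vim also ran higher in males than in females, by 0.32 on the log2 scale with genotype as a term (SE 0.13, edgeR adjusted p 0.479). Twist2 ran in opposite directions by sex. It was at 34.5 to 46.5 CPM in Arf6Q67L females against 65.9 CPM in the control female, and at 28.3 to 35.8 CPM in Arf6Q67L males against 21.8 to 28.3 CPM in control males. Snai1, Snai2 and Twist1 were lower in every Arf6Q67L female than in the control female, and overlapped between the groups in males. All comparisons in females rest on 1 control. The share of all genes that separate in this way within a sex is not given, so no result is drawn from these separations.

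**Figure D4:**
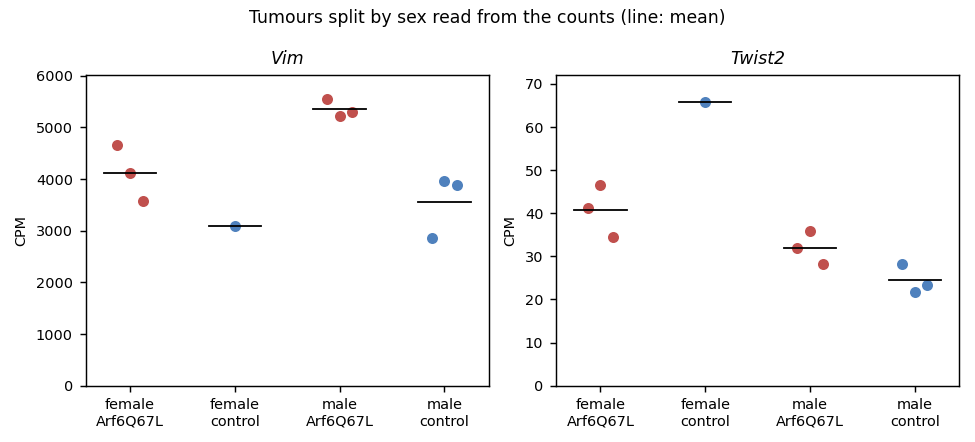
Level of Vim and Twist2 in CPM (y axis) in each tumour, by sex as read from the counts, with Arf6Q67L left of control and a line at the mean. Vim was higher in Arf6Q67L tumours of both sexes, while Twist2 was lower in Arf6Q67L females than in the control female (65.9 CPM) and higher in Arf6Q67L males than in control males.

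Other cell types in the tumours express the same genes, so marker lists of 11 cell types were set beside these results. Mast cell markers summed to 71.4 to 1074 CPM in Arf6Q67L tumours and 29.3 to 104 CPM in controls, and all 10 had a positive log2 fold change, 7 of them at an unadjusted edgeR p under 0.05 (all genes: 49.7% positive, 4.65% higher at that p). T cell markers summed to 16.1 to 113 CPM in Arf6Q67L tumours and 34.6 to 370 CPM in controls, with all 10 negative and 5 at an unadjusted p under 0.05 (7.05% of all genes were lower at that p). Macrophage markers summed to 886 to 1905 CPM in Arf6Q67L tumours and 1388 to 3615 CPM in controls, with 8 of 10 negative. At an unadjusted p under 0.05, 6 of the 10 were lower and 1, Mertk, was higher, against 7.05% and 4.65% of all genes. Endothelial markers summed to 165 to 409 CPM in Arf6Q67L tumours and 204 to 532 CPM in controls, with 8 of 10 negative and 6 of them at an unadjusted p under 0.05 (all genes: 7.05% lower at that p). Fibroblast markers, whose cells express Vim, Snai2, Twist1 and Twist2, overlapped at 2140 to 4422 CPM in Arf6Q67L tumours and 2508 to 4334 CPM in controls. Pericyte and smooth muscle markers summed to 144 to 375 CPM in Arf6Q67L tumours and 198 to 502 CPM in controls, and 4 of the 9 tested were lower at an unadjusted p under 0.05, against 7.05% of all genes. Des, a gene of this list, reached 249 CPM among controls against a control median of 6.36 CPM, so the sums depend on it. Adipocyte markers summed to 17.9 to 98.9 CPM in Arf6Q67L tumours and 24.5 to 402 CPM in controls, with all 8 negative and 4 at an unadjusted p under 0.05, against the same 7.05%. The high control value came from control 4 alone. Controls 1 to 3, at 88.3, 59.5 and 24.5 CPM, lay within the Arf6Q67L range. Keratinocyte markers (4.96 to 43.9 CPM in Arf6Q67L tumours, 13.9 to 23.0 CPM in controls) and Schwann cell markers (84.3 to 104 CPM in Arf6Q67L tumours, 85.5 to 129 CPM in controls) overlapped.

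Marker scores as terms in the edgeR fit moved the log2 fold changes of the EMT genes in both directions. With the endothelial score that of Snai1 was -0.03 (unadjusted p 0.873) and that of Vim 0.25, while that of Snai2 was -0.73 and that of Twist2 0.49. With the mast cell score Snai2 was at -0.34, Vim at 0.36 and Twist2 at 0.39. With the T cell and macrophage scores Snai2 was at -0.38 and -0.40, and Snai1 at -0.40 and -0.38. With the fibroblast score the values were close to those without a score, at -0.31 for Snai1, -0.59 for Snai2 and 0.43 for Vim. Across the 10 tumours, as a description, Pearson's r of Snai1 with the endothelial score was 0.80 and stayed at 0.66 with group means removed. Snai2 correlated with the macrophage score at 0.73, the T cell score at 0.72 and the mast cell score at -0.78. With group means removed these were 0.64, 0.58 and -0.58. Zeb1 was at -0.775 with the Schwann cell score and -0.77 with the pericyte and smooth muscle score, or -0.79 and -0.78 with group means removed. Vim was at -0.54 with the fibroblast score and -0.75 with the endothelial score, or -0.73 and -0.48 with group means removed. The pairs named are among the largest, with or without group means, and other pairs are not listed. These values share tumours and libraries, and the part of the cell types in the differences was not tested further. With the skeletal muscle score, which summed to 17.7 to 869 CPM in Arf6Q67L tumours and 4.19 to 1267 CPM in controls, the log2 fold change of Twist1 was -1.38 (SE 0.65, edgeR adjusted p 0.360). Library numbers ran in separate blocks by genotype, so the order of libraries and the genotype cannot be told apart.

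Among the 21 pairs of tested EMT genes none correlated past an adjusted p of 0.05 over the 10 tumours. By Pearson's r the strongest pair was Snai1 with Twist1, with an r of 0.77 (permutation p 0.00768, 0.161 adjusted over the 21 pairs) and a Spearman's rho of 0.55 (permutation p 0.106, 0.447 adjusted). Without the 2 tumours farthest from the median of Snai1, r was 0.64. By rho the strongest pairs were Snai2 with Twist1, at 0.73, and Twist1 with Zeb2, at -0.73 (permutation p 0.162 adjusted for each). Snai2 and Vim ran in opposite directions, with r of -0.73 (permutation p 0.0169, 0.178 adjusted) and rho of -0.72 (permutation p 0.0231, 0.162 adjusted). Without the 2 farthest tumours r was -0.44, and it was also -0.44 with group means removed.

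The genes whose log2 CPM followed each EMT gene most closely over the 10 tumours, out of 11937 genes compared, are given by Pearson's r as a description. For Snai1 they were Egfl7 (0.91), S100a7a (0.89) and Ssu72 (0.88), and Egfl7 is also a member of the endothelial marker list. For Snai2 they were Tgm2 (0.96), Il12rb1 (0.93) and Tmed3 (0.93). For Twist1 they were Tomm7 (0.94), Timm8b (0.92) and Hexim2 (0.92), and for Twist2 Arih1 (0.95), Seh1l (0.94) and Acad10 (0.93). For Zeb2 they were Amer1 (0.95), Utrn (0.95) and Ints7 (0.92), and for Vim Pusl1 (0.96), Ranbp17 (0.94) and Fech (0.94). For Zeb1 they were Eef2, Zhx2 and Dnajc14.

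Epithelial genes, which EMT factors repress, were mostly low in all tumours. Of 32 epithelial genes, 19 had enough counts for a test and 14 were under 1 CPM in every tumour. None passed the edgeR test, log2 fold changes were positive for 8 and negative for 11, and their median was -0.18. Cdh1 averaged 3.19 ± 1.48 CPM in Arf6Q67L tumours and 3.15 ± 1.29 CPM in controls (log2 fold change 0.01, SE 0.47). Epcam, an epithelial adhesion molecule, averaged 1.87 ± 0.800 CPM in Arf6Q67L tumours and 3.46 ± 0.746 CPM in controls, with a log2 fold change of -0.89 (SE 0.34, edgeR adjusted p 0.374). Krt8 and Krt18, the keratins of simple epithelia, had the highest means of the list. Krt8 lay between 15.0 and 2399 CPM in Arf6Q67L tumours and between 759.5 and 1971 CPM in controls. Krt18 averaged 175 ± 159 CPM in Arf6Q67L tumours and 146 ± 151 CPM in controls. Jup was also not low, at 31.0 ± 4.41 CPM in Arf6Q67L tumours and 30.6 ± 4.97 CPM in controls.

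Genes of the mesenchymal state all had enough counts for a test, and 12 of 25 had a positive and 13 a negative log2 fold change. Of the 25, Tagln alone was under 1 CPM in every tumour. None passed the edgeR test. Cdh11, the mesenchymal cadherin-11, averaged 238 ± 148 CPM in Arf6Q67L tumours and 82.9 ± 24.1 CPM in controls, and the groups did not overlap (130 to 464 CPM in Arf6Q67L tumours, 54.9 to 106 CPM in controls). The fit gave a log2 fold change of 1.52 (SE 0.44) at an edgeR adjusted p of 0.283 and a DESeq2 adjusted p of 0.0220. Cdh2, which encodes N-cadherin, averaged 165 ± 29.1 CPM in Arf6Q67L tumours and 150 ± 33.2 CPM in controls (edgeR adjusted p 0.799). Fn1, which encodes fibronectin, had a log2 fold change of -0.52 (SE 0.38, edgeR adjusted p 0.635).

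Partners of the factors were tested next. Of 19 corepressors and chromatin partners, log2 fold changes were positive for 16 and negative for 3, where 49.7% of all genes were positive. Their median was 0.14, and none passed the edgeR test. Ezh2, the histone H3 methyltransferase of Polycomb complex PRC2, averaged 71.3 ± 10.1 CPM in Arf6Q67L tumours and 47.4 ± 8.01 CPM in controls, with separate groups, a log2 fold change of 0.59 (SE 0.14), an edgeR adjusted p of 0.233 and a DESeq2 adjusted p of 0.0126. Ctbp1, a corepressor that ZEB proteins recruit, had a log2 fold change of 0.19 (SE 0.08, edgeR adjusted p 0.412). Kdm1a, the demethylase that SNAI1 recruits, had one of 0.22 (SE 0.12, edgeR adjusted p 0.511). Among 7 bHLH partners and ID inhibitors of TWIST, log2 fold changes were positive for 3 and negative for 4. Id4 averaged 35.1 ± 8.81 CPM in Arf6Q67L tumours and 95.8 ± 58.7 CPM in controls, with a log2 fold change of -1.45 (SE 0.43), an edgeR adjusted p of 0.284 and a DESeq2 adjusted p of 0.0462. Its groups overlapped, at 21.65 to 44.3 CPM in Arf6Q67L tumours and 23.1 to 145 CPM in controls. Tcf3, a dimer partner of TWIST proteins, had a log2 fold change of 0.16 (SE 0.12, edgeR adjusted p 0.648).

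Of 11 other EMT-linked factors, 10 were tested, with 6 positive, 4 negative and a median log2 fold change of 0.14, and Prrx1, a homeobox factor of mesenchyme, averaged 549 ± 86.9 CPM in Arf6Q67L tumours and 482 ± 52.1 CPM in controls. Of 9 relatives of the SNAI and TWIST genes 2 had enough counts for a test, and Scrt2, Hand1 and Ferd3l were at 0 counts in all tumours. Of 12 regulators of the factors' protein stability, 11 were tested, with 5 positive and 6 negative. Gsk3b, the kinase that marks SNAI1 for destruction, had a log2 fold change of 0.29 (SE 0.14, edgeR adjusted p 0.448). Usp27x, which encodes a deubiquitinase, averaged 4.91 ± 0.715 CPM in Arf6Q67L tumours and 3.74 ± 0.187 CPM in controls (edgeR adjusted p 0.412). Of 14 intermediate filament and linker genes around vimentin, 12 were tested, with 8 positive and 4 negative and a median of 0.20. Sync, which encodes the filament protein syncoilin, averaged 3.05 ± 0.957 CPM in Arf6Q67L tumours and 1.40 ± 0.271 CPM in controls, with separate groups, a log2 fold change of 1.12 (SE 0.28), an edgeR adjusted p of 0.239 and a DESeq2 adjusted p of 0.0103. Flna, which encodes the actin crosslinker filamin A, had a log2 fold change of 0.39 (SE 0.17, edgeR adjusted p 0.412), and Plec, the linker plectin, one of 0.29 (SE 0.15, edgeR adjusted p 0.475).

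**Figure D5:**
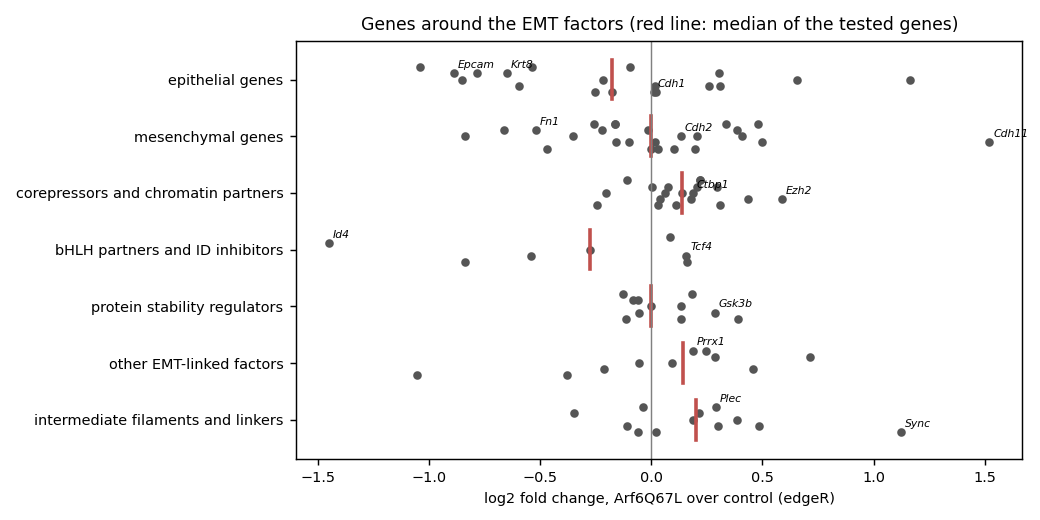
The log2 fold change (Arf6Q67L over control) of the tested genes of each list, with a point per gene and a line at the list's median. Medians lay at -0.18 for epithelial genes, 0.14 for corepressors and chromatin partners and 0.20 for intermediate filaments and linkers, against -0.0018 for all genes.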

How the data were processed

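The authors deposited 1 table of raw counts per gene for 10 tumours, with Ensembl identifiers. Per the labels' protocols, RNA came from a Qiagen extraction and the library kit was Illumina's TruSeq Stranded mRNA. The submitters' processing notes name the build GRCm38 and the tools featureCounts 1.5.1, STAR 2.5.2b and DESeq2 1.18.0. For the strand setting and multiply mapped reads, the choice is not given in the sources used here. Symbols and coordinates came from a GENCODE annotation of GRCm38 (52489 identifiers, 99.7%). Groups follow the genotype label. Tumour numbers follow accession order and pair none.

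Genes were tested in R 4.3.3 with edgeR 4.0.16: filterByExpr with a minimum count of 10, TMM factors, robust glmQLFit and glmQLFTest, then Benjamini-Hochberg adjustment over 17286 genes and a threshold of 0.05. Log2 CPM used a prior count of 2. The exact permutation test over 210 splits has a smallest p of 0.00476. DESeq2 1.42.0, limma 3.58.1 (voom), other filters and scalings, leaving out tumours, and sex and marker scores as terms were alternatives. No pair of libraries of 1 group agreed within sampling noise (lowest chi-square per gene 77.9). Scripts were tested on simulated data.

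The genes and lists described were chosen with earlier results of these data known. Named were all 8 EMT genes, the 3 genes of highest r with each, up to 4 of lowest unadjusted p in each list with a set of fixed names, and Arf6. Some of these are given only within counts, and Gm29100, Gm10125 and Zeb2os are named for their overlap.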

Additional observations from a re-analysis of the deposited data

Results flagged for a closer look

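The genotype difference of Twist2 was 1.08 higher on the log2 scale in male than in female tumours (SE 0.27), since every Arf6Q67L female lay below the control female and every Arf6Q67L male above the control males, at the closest by 28.31 against 28.29 CPM. The edgeR p of the difference was 0.00379 before and 0.999 after adjustment over all 17286 genes. In the same test 0 genes passed the adjusted threshold and 444 (2.57%) had an unadjusted p under 0.05. The females hold 1 control, so the difference rests on that tumour, and sex was read from the counts.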

How the results depend on the processing

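The 7 tested EMT genes gave 0 calls at an adjusted p under 0.05 under every alternative run. The smallest adjusted p reached was 0.115, for Vim. Over 26 alternatives the log2 fold change kept its direction for Snai1 (-0.40 to -0.03), Snai2 (-0.73 to -0.34), Twist1 (-1.38 to -0.52), Zeb1 (0.06 to 0.35) and Vim (0.25 to 0.59). That of Twist2 reversed to -0.0085 without Arf6Q67L tumour 3, to -0.023, -0.11 and -0.080 without control 2, 3 and 4, to -0.0038 with sex as a term, to -0.17 with the T cell score and to -0.037 with the macrophage score. That of Zeb2 reversed to -0.12 with the endothelial and -0.083 with the mast cell score, and its difference of mean log2 CPM to -0.0097 without control 3. The cause was not tested. The value for Twist2 was 0.57 without control 1, and that difference for Zeb2 was 0.15 without Arf6Q67L tumour 4. The endothelial, mast cell and skeletal muscle scores, the test of the difference by sex and the coding length were added after the data were seen.

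Over all genes, edgeR called 0 higher and 0 lower, DESeq2 161 and 240, limma-voom 1 and 1, and the edgeR exact test 40 and 154. Leaving out 1 tumour gave 0 to 1 higher and 0 to 0 lower, male tumours alone gave 2 higher, and the skeletal muscle score as a term gave 6 higher and 73 lower. Leaving out a tumour moved the unadjusted exact permutation p of Vim, Snai2, Snai1, Twist1 or Twist2 across 0.05, as given with each gene. Female tumours alone were not run, since they hold 1 control. No paired analysis was possible because the labels give no replicate numbers. Depth limits Snai3 alone among these genes.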

Other observations

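Vim was also set against the summed RPKM of the 7 factors, per length of summed exons, a ratio chosen after the values were seen and given with no test. It was 11 ± 3.43 in Arf6Q67L tumours (SD, n = 6; 7.62 to 15.0) and 5.80 ± 1.38 in controls (SD, n = 4; 4.50 to 7.49). The ratio depends on the length used: by the longest coding transcript it was 18.8 ± 4.95 in Arf6Q67L tumours (13.6 to 24.9) and 10.8 ± 2.66 in controls (8.28 to 13.9), and the groups overlapped. By summed exons, the summed RPKM of the factors was 95.7 ± 22.7 in Arf6Q67L tumours and 127 ± 12 in controls.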
